A study of Mus musculus with 6 samples.

Results

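Respiratory complex I is assembled from proteins of both genomes of the cell, and the expression of its genes was described in mouse quadriceps femoris with and without Prr14. The members were every gene named Nduf followed by a, b, c, s or v and a number, together with the mitochondrially encoded Nd genes. This gave 43 of the 22036 genes in the count table, of which 36 are nuclear and 7 are mitochondrial. Ndufab1, the acyl carrier protein shared with fatty acid synthesis, and the assembly factors are outside that naming rule and were kept apart. Ndufb1 had no row in the table and was not analysed here. Ndufa4 carries a complex I name but is known today as a subunit associated with complex IV, and the nuclear sum is also compared without it below.

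Total RNA of the quadriceps from 3 Prr14-WT and 3 Prr14-KO libraries was converted to cDNA by template switching and read as long cDNA on an Oxford Nanopore instrument. The genotype is the only difference the labels give. They do not state the age, sex or strain of the mice, the part of Prr14 that was removed, or whether the knockout covers the whole animal. The libraries are called WT and KO replicates 1 to 3, numbered in accession order, and the labels do not say that each comes from a separate animal, so p-values cover only the scatter among the 6 libraries.

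Complex I, the NADH:ubiquinone oxidoreductase, is the entry point for electrons from NADH into the respiratory chain and pumps protons across the inner mitochondrial membrane. Its N module oxidises NADH, its Q module passes the electrons to ubiquinone, and its membrane arm, the P module, moves the protons. The catalytic core subunits of the N and Q modules come from nuclear genes and those of the membrane arm from mitochondrial DNA, while the accessory subunits that stabilise the enzyme are all nuclear.

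The mitochondrial members are packed closely on the mitochondrial genome. Both pairs of members that overlap each other are shown because their reads are hard to assign. In the GENCODE M21 annotation of GRCm38, mt-Nd4l (chrM:9877-10173, plus strand) and mt-Nd4 (chrM:10167-11544, plus strand) share 7 bases. The end of mt-Nd5 (chrM:11742-13565, plus strand) and the end of mt-Nd6 (chrM:13552-14070, minus strand) share 14 bases on opposite strands. Each sequence is written 5′ to 3′ on the strand of its gene, with the shared bases in capitals. The mt-Nd4l and mt-Nd5 stretches lie at chrM:10144-10173 and chrM:13536-13565, and those of mt-Nd4 and mt-Nd6 at chrM:10167-10196 and chrM:13552-13581.
mt-Nd4l, last bases: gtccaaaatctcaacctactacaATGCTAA
mt-Nd4, first bases: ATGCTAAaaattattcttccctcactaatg
mt-Nd5, last bases: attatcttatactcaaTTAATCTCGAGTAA
mt-Nd6, last bases: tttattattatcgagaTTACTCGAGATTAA
The use of strand in counting was not given in the sources used here, and reads over the shared bases cannot be assigned with certainty. Of the 7 mitochondrial members, 6 overlap another annotated gene. These include mt-Nd1, which overlaps mt-Ti, and mt-Nd2, which overlaps mt-Tw, each on the same strand. Among the nuclear members, 18 of 36 overlap another annotated gene, 14 of them a gene on the opposite strand.

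The promoters of the nuclear members were searched for sites of factors known for nuclear respiratory genes. RefSeq windows on GRCm38.p6, from 250 bases before to 50 bases after the start, were matched for 32 of the 36 nuclear members. TGCGCA, the palindromic core of the NRF1 site, was present in the windows of 10 of the 32 members (31.25%), against 8.79% of all 27025 genes in the RefSeq table. AAGATGG, the core of the YY1 site, was present on either strand in 7 members (21.9%, against 7.28%). CCGGAAG, an ETS site bound by GABP, was present in 4 (12.5%, against 9.93%), and AAGGTCA, the element of oestrogen-related receptors, in 3 (9.375%, against 5.38%). None of these motifs contains another, though CCGGAAG ends in the letters with which AAGATGG and AAGGTCA begin. The windows printed here were chosen after the matches were seen, to let a reader see the NRF1 core, in capitals, among the bases around it in 4 members that have it before a single RefSeq start. All are on the minus strand, at chr15:82354346-82354391 for Ndufa6, chr4:40279474-40279519 for Ndufb6, chr13:73328585-73328630 for Ndufs6 and chr4:123718260-123718305 for Ndufs5.
Ndufa6: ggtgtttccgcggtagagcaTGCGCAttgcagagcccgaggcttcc
Ndufb6: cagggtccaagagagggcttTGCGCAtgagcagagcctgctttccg
Ndufs6: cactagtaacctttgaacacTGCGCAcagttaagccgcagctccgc
Ndufs5: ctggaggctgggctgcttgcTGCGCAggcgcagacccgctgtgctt
The site starts 80 bases before the start of Ndufa6, which has 2 matches in its window, 78 before Ndufb6, 128 before Ndufs6 and 99 before Ndufs5. A match describes letters in the window and is not a measurement of binding. The genes that share it did not all share a direction in the counts on the TMM scale: the log2 difference of KO from WT was -0.35 for Ndufa6 and 0.20 for Ndufs6, and neither passed the test.

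The libraries held 1436099 to 1712975 counts each, and 6680 genes were tested with edgeR's quasi-likelihood test, of which 199 were higher and 219 lower in KO at an adjusted p under 0.05. Prr14 itself had 9, 11 and 12 counts in WT and 4, 10 and 3 in KO. By counts, KO replicate 2 was within the WT range. After the scaling described below, Prr14 was at 6.57, 7.50 and 8.22 CPM in WT. In KO it was at 2.45, 6.25 and 1.72 CPM, without overlap but short of the threshold (edgeR log2 fold change -1.10, adjusted p = 0.196). These counts are too low to check the labels. Fast fibre genes, which mark the labelled tissue, were abundant. Levels below are CPM, counts scaled to a common library total after TMM scaling (trimmed mean of M-values), and log2 fold changes are KO over WT. TMM assumes that most genes do not differ; with library totals in its place the median log2 fold change of all genes tested moved from 0.02 to 0.25, so a direction below is relative to that centre.

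The genotypes differed in the balance between the mitochondrial and the nuclear transcripts of the complex. The summed counts of the 7 mitochondrial members divided by those of the 36 nuclear members gave a ratio of 1.31, 1.46 and 1.35 in the WT libraries. In the KO libraries the ratio was 1.07, 1.12 and 1.11. All 3 KO libraries were below all 3 WT libraries, at 1.10 ± 0.030 (SD, n = 3) against 1.38 ± 0.073 (SD, n = 3), a mean 19.9% lower. Both sums come from the same library, so the ratio does not depend on how libraries are scaled. No p is given for it, because the members were chosen with earlier results known. In a bulk sample such as this, fewer cells of a type and less RNA per cell cannot be told apart.

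The ratio held its separation when the members with the most counts were removed, with a smaller gap. Without mt-Nd1, the ratio of the other 6 mitochondrial members to the nuclear sum was 0.490, 0.512 and 0.475 in WT. It was 0.394, 0.457 and 0.445 in KO, again with no overlap. With both mt-Nd1 and Ndufa4 left out, the log2 difference of the ratio was -0.20, against -0.32 with all members. The 6 mitochondrial genes outside complex I, taken over the same nuclear sum, gave 0.784, 0.774 and 0.745 in WT and 0.769, 0.753 and 0.675 in KO, where the genotypes overlap. Without mt-Nd1, the mitochondrial members over these 6 other genes gave 0.624, 0.661 and 0.637 in WT. They gave 0.512, 0.608 and 0.659 in KO, which overlap. For mt-Nd1 over the same 6 genes the ratio was 1.05 to 1.22 in WT and 0.876 to 0.987 in KO, without overlap. The differences between these ratios were not tested.

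**Figure D1:**
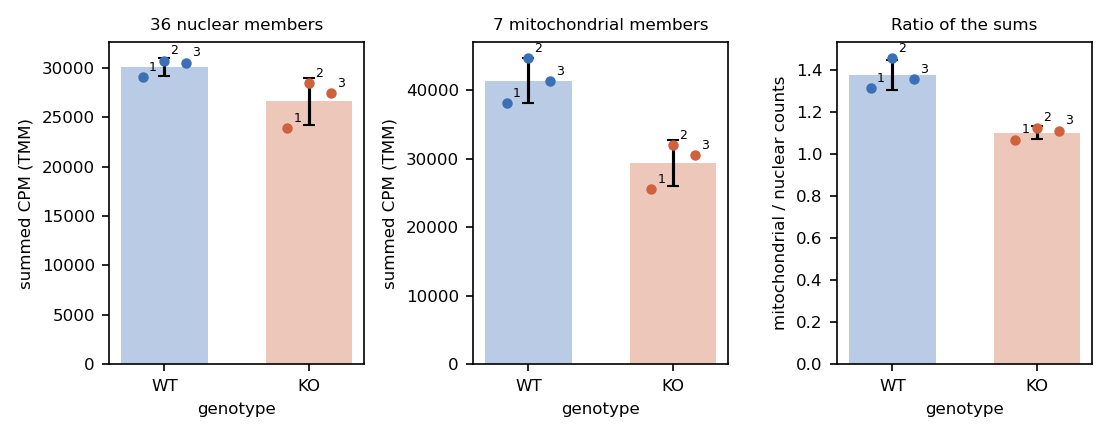
Summed TMM-scaled CPM of the 36 nuclear members (left) and of the 7 mitochondrial members (middle), and the ratio of their counts (right), by genotype; bars are means, error bars SD (n = 3), and points the libraries with their replicate number. The KO ratio, 1.07 to 1.12, lies below the WT ratio, 1.31 to 1.46, in all libraries, and the lower nuclear sum in KO is not kept with library totals, where it is 0.05 higher on the log2 scale.

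Taken apart, the mitochondrial sum differed more than the nuclear sum. The mitochondrial members summed to 38191, 44768 and 41380 CPM in WT and to 25544, 32046 and 30523 CPM in KO. The nuclear members summed to 29060, 30733 and 30542 CPM in WT and to 23918, 28492 and 27479 CPM in KO. Both sums were below the WT range in every KO library, by a mean of 29.1% and 11.6%. With library totals the mitochondrial sum was still below WT in every KO library (log2 difference -0.26), but the nuclear sum overlapped and its difference turned to 0.05. As a share of all counts, the nuclear members took 2.74 ± 0.122% in WT and 2.84 ± 0.228% in KO (SD, n = 3 each). The mitochondrial members took 3.77 ± 0.324% in WT and 3.14 ± 0.332% in KO (SD, n = 3 each), with no overlap.

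Of the 43 members, all of which were tested, 2 were lower and none was higher in KO by edgeR's quasi-likelihood test; at an unadjusted p under 0.05 there were 16, all with lower means in KO. They were mt-Nd1 and 1 nuclear member, 4.65% of the members. Of all genes tested, 6.26% were called in either direction, 3.28% lower and 2.98% higher, so the called share of the members was near the background. Unadjusted p-values under 0.05 were found for 37.2% of the members and for 20% of all genes. The nuclear call was lost with DESeq2, with library totals and without any one of the 6 libraries. With DESeq2 only mt-Nd1 was called among the members.

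Most members had lower means in KO on the TMM scale. The log2 fold change was negative in 39 of 43 members, against 48% of all genes tested. All KO libraries were below all WT libraries in 14 of the 36 nuclear members and in 5 of the 7 mitochondrial members, against 12.2% of all genes. All KO libraries were above all WT libraries in 2 nuclear members and no mitochondrial one, against 13.5% of all genes. With library totals, 25 of the 36 nuclear members were positive, against 4 with TMM, and 11 were negative. The 7 mitochondrial members stayed negative, while of all genes tested only 24.4% were negative with library totals. On that scale 1 nuclear member and 1 mitochondrial member, mt-Nd1, had every KO library below WT (5.18% of all genes), and 8 nuclear members had every KO library above (28.5% of all genes). The median log2 fold change was -0.16 in the nuclear members, and -0.36 in the mitochondrial members, ranging from -0.58 to -0.35. The median of all genes tested was 0.02.

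**Figure D2:**
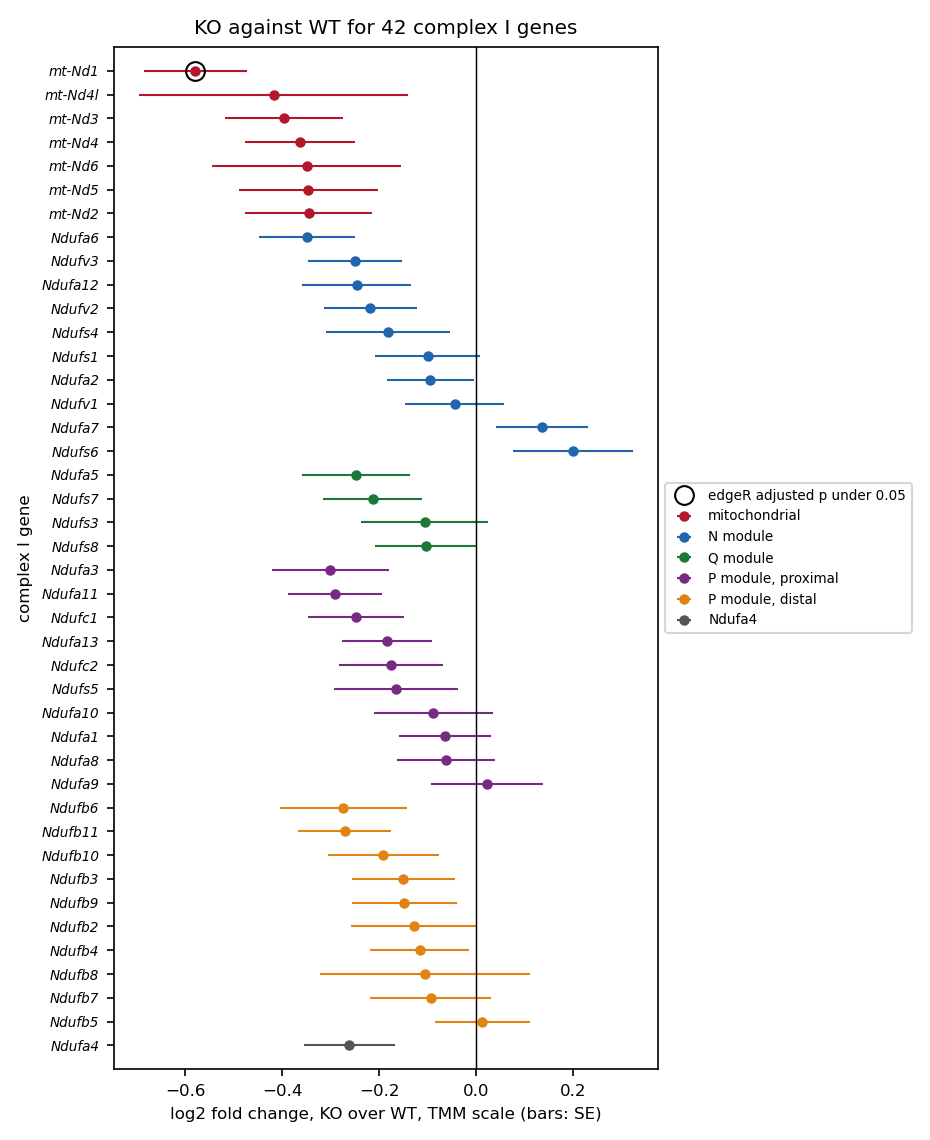
Log2 fold change of KO over WT for 42 of the complex I genes on the TMM scale, with its standard error from edgeR, grouped by genome and module; a ring marks mt-Nd1, which has an adjusted p under 0.05. The mitochondrial members lie between -0.58 and -0.35 and the nuclear ones shown between -0.35 and 0.20. With library totals the mitochondrial members stay negative and 25 of all 36 nuclear members are positive. On that scale only 24.4% of all genes tested are negative.

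Of the mitochondrial members, mt-Nd1 was the most abundant and had the largest fold change. It encodes a core subunit at the foot of the membrane arm, next to the site where ubiquinone binds. Its level was 23958, 29038 and 26880 CPM in WT and 16123, 19011 and 18308 CPM in KO. Every KO library was below every WT library. It fell by 33.1%, with a log2 fold change of -0.58 (SE 0.11, adjusted p = 0.00385 in edgeR). With library totals it was also lower (-0.34, adjusted p = 0.0256), where 2.22% of all genes were called lower. Without WT replicate 2, the library with the highest level, the log2 fold change was -0.54 and the adjusted p was 0.0545. In DESeq2 the adjusted p was 0.00335.

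The transcripts for the antiporter-like pump subunits, mt-Nd2, mt-Nd4 and mt-Nd5, had lower means in KO without passing the test. mt-Nd4 was at 9323, 10039 and 9341 CPM in WT and at 6178, 8448 and 7677 CPM in KO (log2 fold change -0.36, adjusted p = 0.0752). mt-Nd2 was at 3126, 3699 and 3463 CPM in WT and at 2112, 3027 and 2958 CPM in KO (-0.35, adjusted p = 0.155). mt-Nd5 was at 1067, 1253 and 1070 CPM in WT and at 678, 1034 and 955 CPM in KO (-0.35, adjusted p = 0.198). In all of these genes the KO range ended below the WT range, and KO replicate 1 was well under the other KO libraries.

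The 3 small membrane subunits, mt-Nd3, mt-Nd4l and mt-Nd6, did not pass the test either. mt-Nd3 was at 365, 380.3 and 398 CPM in WT and at 248, 289.8 and 330.0 CPM in KO, with no overlap (log2 fold change -0.40, adjusted p = 0.0695). mt-Nd6, the only member on the other mitochondrial strand, was at 339, 339 and 210.2 CPM in WT and at 196, 219 and 280.1 CPM in KO (-0.35, adjusted p = 0.372). WT replicate 3 was low for mt-Nd6 and lay inside the KO range. mt-Nd4l had 19, 29 and 26 counts in WT and 15, 24 and 25 in KO, which overlap (-0.42, adjusted p = 0.453). These counts were 0.149 to 0.197% of those of mt-Nd4, with which it is known to share an mRNA, so how the counting divided the reads of the shared transcript bears on both values.

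Per kilobase of annotated transcript, the WT means of the mitochondrial members ran from 27822 CPM for mt-Nd1 through 6943 for mt-Nd4, 3304 for mt-Nd2 and 1095 for mt-Nd3 to 620 for mt-Nd5, 570 for mt-Nd6 and 57.7 for mt-Nd4l. The neighbours mt-Nd5 and mt-Nd6 overlapped in their WT libraries on this scale, at 585 to 687 and 405 to 653, and the other neighbours did not. The nuclear members ran from 129 CPM per kilobase for Ndufs1 to 5005 for Ndufa4. A nanopore read stands for a molecule whatever its length, so division by length lowers the value of long transcripts.

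mt-Nd1 also took a smaller part of the mitochondrially encoded counts in KO. It made up 41.2 ± 1.66% of the counts of the 13 mitochondrially encoded protein genes in WT and 36.5 ± 0.898% in KO (SD, n = 3 each), with no overlap. Among the complex I genes alone its share was 64.2 ± 1.26% in WT and 60.8 ± 2.03% in KO (SD, n = 3 each), and there the genotypes overlapped. All 6 mitochondrial genes for the other complexes had lower means in KO on the TMM scale, and none passed the test. Their log2 fold changes were -0.31 for mt-Co2 (adjusted p = 0.0677), -0.31 for mt-Atp6 (0.0634), -0.29 for mt-Co3 (0.109), -0.23 for mt-Cytb (0.215), -0.20 for mt-Co1 (0.280) and -0.51 for mt-Atp8 (0.288). With library totals, mt-Cytb and mt-Co1 turned slightly positive, at 0.0095 and 0.03. The mitochondrial ribosomal RNAs had no row in the table and were not analysed here.

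**Figure D3:**
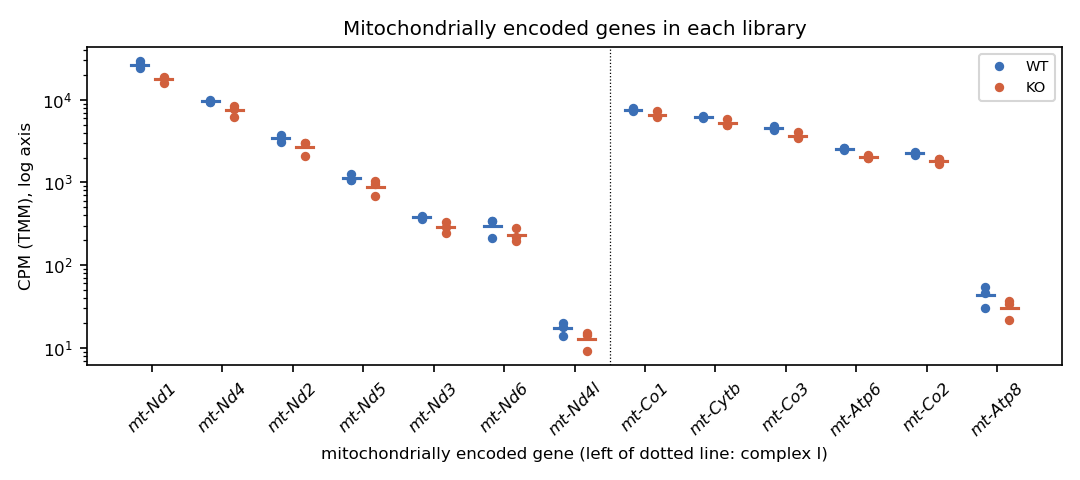
TMM-scaled CPM of the 13 mitochondrially encoded protein genes in each library on a log axis, with bars at the means (n = 3 per genotype); complex I genes stand left of the dotted line. mt-Nd1 is the highest of all and its KO points, 16123 to 19011, lie below its WT points, 23958 to 29038; with library totals mt-Cytb and mt-Co1 change direction and the complex I genes do not.

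In the Q module, which hands electrons to ubiquinone, the median log2 fold change was -0.21 over 5 members. Ndufa5, an accessory subunit and the member of the module with the most counts, was at 1635, 1775 and 1732 CPM in WT and at 1199, 1593 and 1538 CPM in KO (log2 fold change -0.25, adjusted p = 0.234). Its KO range ended below its WT range, with KO replicate 1 far lower than the rest. With library totals the log2 fold change of Ndufa5 was -0.01. Ndufs7, which carries an iron-sulfur cluster next to the ubiquinone site, was at 667 ± 40.9 CPM in WT and 575 ± 41.5 in KO (SD, n = 3; -0.21, adjusted p = 0.262), also without overlap. Ndufs3 and Ndufs8 overlapped, at -0.11 and -0.10. All 5 were negative on the TMM scale. Ndufa9 (0.02), at the junction of the arms, was not among them and was listed with the membrane arm.

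In the N module, which oxidises NADH, members were found on both sides of the WT range. Ndufa6, an accessory subunit that binds the acyl carrier protein, was at 1238, 1371 and 1389 CPM in WT and at 954, 1102 and 1084 CPM in KO. The KO libraries were all below WT, but the gene missed the threshold (log2 fold change -0.35, SE 0.10, adjusted p = 0.0516). Without the filter on low counts it passed (0.0363), and with library totals it was at -0.11 (0.460). Ndufa2, the member of the module with the most counts, was at 1426, 1399 and 1473 CPM in WT and at 1304, 1360 and 1362 CPM in KO (-0.09, adjusted p = 0.620), and turned to 0.14 with library totals.

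Ndufs6 and Ndufa7 were the members with all KO libraries above all WT libraries. Ndufs6, a zinc-binding accessory subunit, was at 174, 162 and 186 CPM in WT and at 193, 214 and 193 CPM in KO (log2 fold change 0.20, adjusted p = 0.412). Ndufa7 was at 680.0, 658 and 659 CPM in WT and at 723, 777 and 695 CPM in KO (0.14, adjusted p = 0.480). Neither passed on the TMM scale. With library totals both did, at 0.44 (adjusted p = 0.0355) and 0.37 (adjusted p = 0.0300), where 9.78% of all genes were called higher. Ndufs6 overlaps Mrpl36 on the opposite strand. The catalytic subunits of the module did not pass: Ndufv1, which binds the flavin, was at -0.04 and Ndufs1, which carries iron-sulfur clusters, at -0.10, both overlapping, and Ndufv2 was at -0.22 without overlap (adjusted p = 0.218). The module's median was -0.14.

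The nuclear part of the membrane arm had no called member among 20, against 6.26% of all genes called in either direction. In its proximal part, near mt-Nd1 and mt-Nd2, the median log2 fold change was -0.17 over 10 members, and in its distal part, near mt-Nd4 and mt-Nd5, it was -0.14 over 10. Ndufa11, a subunit that contacts complex III in supercomplexes, was at 681, 712 and 691 CPM in WT and at 529, 596 and 578 CPM in KO (-0.29, adjusted p = 0.0966). All its KO libraries were below WT, and its log2 fold change was -0.06 with library totals. Ndufa13, also known as GRIM-19 and the P module member with the most counts, was at 1666, 1709 and 1832 CPM in WT and at 1449, 1600 and 1533 CPM in KO (-0.18, adjusted p = 0.292), and was at 0.05 with library totals. Ndufa9, an accessory subunit at the junction of the arms, was listed here with the proximal part and not with the Q module. Its level was 215, 211 and 199 CPM in WT. In KO it was 221, 210.5 and 203 CPM, where the genotypes overlap (0.02, adjusted p = 0.948). The largest spread in KO was that of Ndufb8, at 425, 811 and 540.2 CPM, against 649, 590.2 and 672 in WT; it was singled out after its values were seen.

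**Figure D4:**
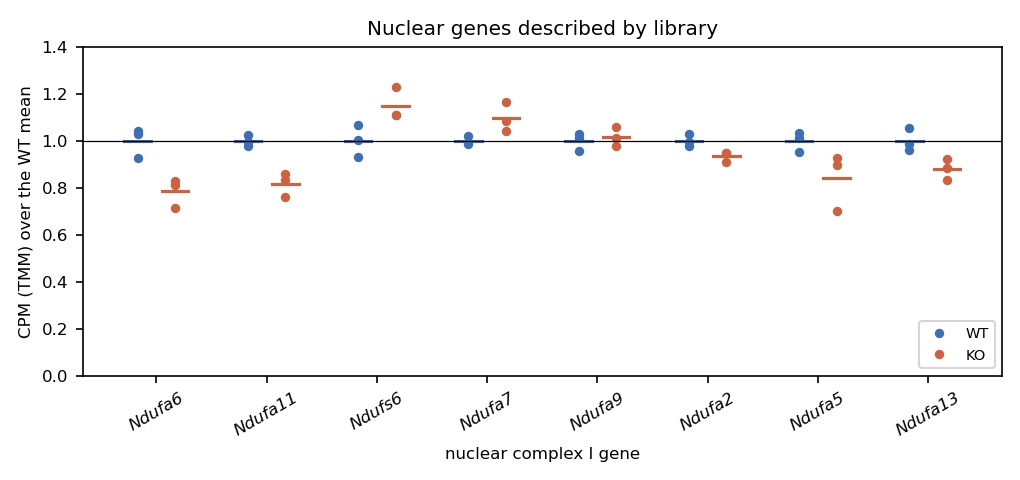
TMM-scaled CPM of 8 nuclear members divided by the WT mean of each gene; points are libraries and bars means (n = 3 per genotype). Ndufa6 and Ndufa11 have every KO library below WT, Ndufs6 and Ndufa7 every KO library above and Ndufa9 overlaps. With library totals Ndufa2 and Ndufa13 turn positive. The log2 fold changes of Ndufa6, Ndufa11 and Ndufa5 are then -0.11, -0.06 and -0.01.

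The nuclear members can also be divided into catalytic core and accessory subunits. On the TMM scale the 7 nuclear core members had a median log2 fold change of -0.11, and all were negative. The 29 accessory members, with Ndufa4 counted among them, had a median of -0.17, with 25 negative. Ndufa4 was at 2599, 2801 and 2573 CPM in WT and at 2067, 2361 and 2222 CPM in KO, without overlap (-0.26, adjusted p = 0.126), and leaving it out changed the nuclear median from -0.16 to -0.15. Without it, the log2 difference was -0.17 for the nuclear sum, against -0.18 with it, and -0.33 for the ratio of the sums. Ndufab1, outside the naming rule, was at -0.10 (adjusted p = 0.777) and turned positive with library totals (0.13) and without KO replicate 1 (0.07).

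On the TMM scale, KO replicate 1 had the lowest level of the 6 libraries in 40 of the 43 members. These were 33 nuclear and all 7 mitochondrial members. KO replicate 1 was not counted in this way over all genes. Its nuclear members had a median of -0.33 on the log2 scale against their WT means, while the medians of KO replicates 2 and 3 were -0.08 and -0.11. Its mitochondrial members had a median of -0.70, against -0.19 and -0.24. With library totals the nuclear median was -0.07 in KO replicate 1 and -0.07 in WT replicate 3. The mitochondrial medians of these libraries were -0.43 and -0.08. Without KO replicate 1 the median log2 fold change was -0.07 in the nuclear and -0.24 in the mitochondrial members, with 27 of 36 and 7 of 7 members negative. The ratio of the sums, at 1.12 and 1.11 in the remaining KO libraries, was still below every WT library.

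**Figure D5:**
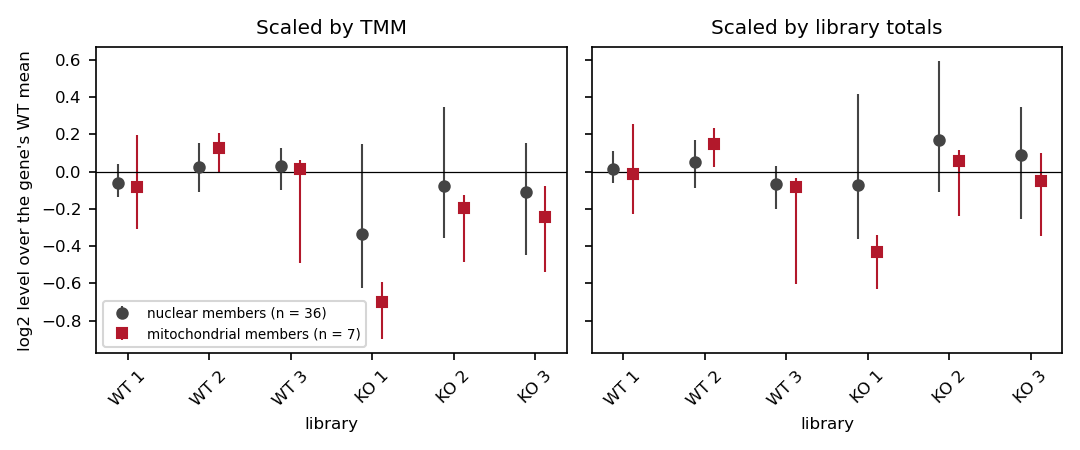
Median log2 level of the nuclear (circles, n = 36) and mitochondrial (squares, n = 7) members in each library over their WT means, with lines from the lowest to the highest member, scaled by TMM (left) and by library totals (right). The mitochondrial median lies below the nuclear one in each KO library on both scales. It also does so in WT replicates 1 and 3, with smaller gaps. The KO nuclear medians move from -0.33, -0.08 and -0.11 with TMM to -0.07, 0.17 and 0.09 with library totals.

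The genes known to build the complex or to express mitochondrial DNA did not pass the test. Of the assembly factors, 19 were tested and none was called in either direction by edgeR, against 6.26% of all genes tested. Of these factors, 11 were negative and the median was -0.07. Tmem70, which acts in the assembly of the membrane arm, was at 102 ± 2.24 CPM in WT and 72.9 ± 18.6 in KO (SD, n = 3; log2 fold change -0.49, adjusted p = 0.128). Tmem70 passed without KO replicate 2 (-0.70, adjusted p = 0.0275). It did not pass with DESeq2 (adjusted p = 0.257), or in edgeR without WT replicate 1 (0.244) or WT replicate 2 (0.274). Ndufaf5, which modifies Ndufs7, was at -0.38 (adjusted p = 0.184).

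Of the mitochondrial transcription, RNA processing and RNA stability genes, 22 of 29 were tested and none was called, against 6.26% of all genes tested. Their median was -0.12, with 13 negative. Tfam, which packages mitochondrial DNA and starts its transcription, had 36, 51 and 45 counts in WT and 29, 23 and 39 in KO, where the counts overlap. After scaling it was at 30.6 ± 4.25 CPM in WT and 18.2 ± 4.0 in KO (SD, n = 3), without overlap but short of the threshold (log2 fold change -0.75, adjusted p = 0.0719). Tfb2m, the partner of Tfam in transcription initiation, was at -0.41 (adjusted p = 0.252). Of the 13 regulators of mitochondrial biogenesis, 6 were tested and none was called. Ppargc1b, a coactivator of nuclear respiratory genes, was at 0.85 (adjusted p = 0.236) and Nrf1 at -0.56 (adjusted p = 0.375), each from fewer than 20 counts a library.

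Marker lists were read beside the complex I values. Of all genes tested, 3.28% were called lower and 2.98% higher in KO. Of 11 fast fibre genes, 6 were called lower and none higher, with a median log2 fold change of -0.67: Myh4, Mylpf, Myl1, Tnnc2, Casq1 and Pvalb. Their list summed to 179600 to 228151 CPM in WT and 123784 to 141442 CPM in KO. The slow fibre genes had no call in 8 tested, and summed to 65.0 to 451 CPM in WT and 109 to 1418 CPM in KO. No gene was called in the fibroblast (7 tested), endothelial (6), macrophage (5), red blood cell (5), adipocyte (5) or Schwann cell (4) lists. Red blood cell genes summed to 1623 to 4002 CPM in WT and 1401 to 2016 CPM in KO, and macrophage genes to 154 to 507 and 186 to 197. Fibroblast genes summed to 3792 to 5744 CPM in WT and 3708 to 4638 in KO, endothelial genes to 161 to 211 and 177 to 219, adipocyte genes to 128 to 776 and 372 to 605, and Schwann cell genes to 148 to 262 and 134 to 200. Of the brown fat genes, Cidea was higher in KO, with 1, 0 and 2 counts in WT and 17, 14 and 19 in KO (adjusted p = 0.00104), while Ucp1 was at 0 counts in every library. The part of these lists in the complex I values was not tested.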

How the data were processed

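Nanopore cDNA libraries (14 PCR cycles) from WT and KO quadriceps, 3 of each, were used. The authors deposited whole-number counts per gene, per the file headers, with no normalization, and CPM, which were not used in any test. The submitters' processing notes name minimap2, DESeq2 1.6.3 and GRCm38. The read counter was not given in the sources used here.

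From the deposited counts, edgeR 4.0.16 (R 4.3.3) was run with filterByExpr by genotype (minimum count 10), TMM scaling over the genes kept, the robust quasi-likelihood test, and Benjamini-Hochberg adjustment over 6680 genes at 0.05. CPM printed in the text are these counts over TMM-scaled library sizes. Fits were tested on simulated data, where 0% of members lowered 1.25-fold and 11.6% of members lowered 1.5-fold were called. A member that did not pass can therefore still differ by such a fold. DESeq2 1.42.0, limma-voom 3.58.1, other scalings and filters, and each library left out were alternatives; library sizes from all listed genes were added after seeing the data.

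Members and lists were chosen with earlier results of these data known. Values in all libraries are given for the mitochondrial members, members that passed, the 3 nuclear members with the smallest p in each direction, and the most counted of each module. Genes that passed are named from the other lists, as are the 2 with the smallest p in the assembly, mitochondrial RNA and biogenesis lists; marker lists are given as counts and sums. Gene positions, transcript lengths and mitochondrial sequences are from GENCODE M21, and promoters from RefSeq. The values of 1 nuclear member are not reported here.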

Additional observations from a re-analysis of the deposited data

How the results depend on the processing

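No paired analysis was possible because the titles of the genotypes share only 1 number, with nothing to say that it marks a pair, and the replicate numbers follow accession order. The number of nuclear members called lower, 1 with TMM and edgeR, was 0 with library totals, with DESeq2 and without robust estimation, was 0 when any library was left out, and was 2 without the filter on low counts. With library totals, 2 nuclear members were called higher. The number of mitochondrial members called lower, 1, was 5 without the filter, and 0 to 2 when each library was left out: 0 without WT replicate 2 and 2 without KO replicate 2 or KO replicate 3. Without the filter, 362 of all 14292 genes tested were called lower.

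The median of the nuclear members changed sign with library totals (0.0755), and that of the mitochondrial members moved to -0.13. The median of all genes tested was 0.25 on that scale, so both stayed below it. The nuclear sum reversed to 0.0547 with library totals and to 0.0415 as a share of nuclear-encoded counts, and the mitochondrial sum moved from -0.50 to -0.26 and -0.28. The log2 ratio of the sums, -0.32, was -0.20 without the most counted member of each kind and -0.25 as a mean over members. Leaving out each library gave nuclear medians of -0.25 to -0.07, mitochondrial medians of -0.51 to -0.24, and ratios of -0.35 to -0.28. Single genes that reversed were Ndufa13 (0.052), Ndufa2 (0.14), Ndufab1 (0.13), mt-Co1 (0.0323) and mt-Cytb (0.0095) with library totals, Ndufa9 without WT replicate 3 (-0.0157) or KO replicate 1 (-0.00849), and Ndufab1 without KO replicate 1 (0.0709). With each library left out, Ndufa9 ran from -0.0157 to 0.0479 and Ndufab1 from -0.298 to 0.0709. The causes were not tested. Library sizes from all listed genes, chosen after seeing the data, left the call of mt-Nd1 in place. With 3 libraries a genotype, the 15 to 29 counts of mt-Nd4l limit what can be detected.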
